A study of Mus musculus with 18 samples.

Results

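The mouse mitochondrial genome encodes 37 genes, and the deposited table held a row for each of them among its 36451 genes. The members were the rows whose symbol begins with mt-, and all 37 lay on the sequence named MT. They comprised 13 messenger RNA genes, 2 ribosomal RNA genes and 22 transfer RNA genes. Of these, 28 lie on the plus strand and 9 on the minus strand. The rule itself used no measured value, although earlier results of these data were known when it was chosen.

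Mitochondrial DNA is a small circle that is copied into long transcripts from both strands. Transfer RNAs lie between most of the messenger and ribosomal RNAs, and cutting them out releases the RNAs on either side. Most of the messengers then receive short adenine tails. All of the messengers encode subunits of the respiratory complexes or of the ATP synthase in the inner membrane. The other subunits, and every protein that transcribes, cuts and stabilises these RNAs, come from nuclear genes. Colonocytes, the absorptive cells of the colon surface, burn bacterial butyrate in their mitochondria.

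Polyadenylated RNA of mouse colon was sequenced in 18 libraries, 6 in each of 3 groups, in a study of Akkermansia muciniphila, a bacterium of the gut mucus abbreviated AKK in the labels, and of colitis. The Control animals were SPF-grade C57BL/6J males aged 6 weeks with no stated treatment. The Model animals drank 3% dextran sulfate sodium (DSS), a chemical that injures the colon lining, for 1 week and were gavaged with PBS. The AKK animals were gavaged with 0.1 mL of the bacterium at 1500000000 CFU per mL, with 1 dose a week over 6 weeks. Only the Model labels name DSS, and it is not stated whether AKK animals drank it. The series' design text also mentions Erastin, an inducer of ferroptosis, but no group described here is stated to have received it. The Model and AKK labels give no age, and the library numbers do not overlap between groups, so age, cohort and treatment cannot be told apart. Each library is named here by its group and number, and since the labels do not say that each came from its own animal, p-values reflect the spread among libraries and no more.

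The transfer RNA genes on which the group comparisons turn are 3 neighbours, mt-Th for histidine, mt-Ts2 for serine and mt-Tl2 for leucine. They occupy MT:11546-11741 on the plus strand, 196 bases between mt-Nd4 and mt-Nd5. They are shown because they are so short and close that one sequenced fragment can cover all of them. Their sequences, from the GENCODE M21 transcripts of the GRCm38 (mm10) genome, are given 5′ to 3′ with the anticodon in capitals. The serine gene ends on the base with which the leucine gene starts.
mt-Th: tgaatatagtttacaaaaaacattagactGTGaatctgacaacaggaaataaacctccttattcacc
mt-Ts2: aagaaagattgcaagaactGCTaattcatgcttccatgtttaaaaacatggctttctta
mt-Tl2: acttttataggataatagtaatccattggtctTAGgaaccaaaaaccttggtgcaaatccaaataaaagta

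The members are packed so closely that 9 pairs of neighbouring genes overlap. The gene for another serine transfer RNA, mt-Ts1 at MT:6870-6938 on the minus strand, shares its last 3 bases with the end of mt-Co1 on the other strand, marked in capitals. The start of mt-Atp6 lies inside the end of mt-Atp8 over 43 bases at MT:7927-7969, and the capitals there mark the start codon of the first and the stop codon of the second. These sequences are shown because fragments across such overlaps belong to both genes. The levels of overlapping members are therefore uncertain.
mt-Ts1: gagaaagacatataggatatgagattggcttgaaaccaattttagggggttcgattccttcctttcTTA
mt-Atp8 and mt-Atp6 overlap: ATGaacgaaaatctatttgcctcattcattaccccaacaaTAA

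Libraries held 53873744 to 65705141 counts in Control, 58841661 to 79147073 in Model and 60665457 to 82589848 in AKK, and 4 of them (Model_1341, AKK_1306, AKK_1309 and AKK_1310) exceeded 70000000. Nuclear copies of mitochondrial genes held many counts. The table lists 12 nuclear genes whose GENCODE transcripts contain a run of at least 50 bases identical to a mitochondrial gene, and 7 of them are on chromosome 1. In every library, 5 of those 7 had 94.0% to 105.0% of the count of their mitochondrial counterpart. Gm28661, for example, had 98.7% to 100.5% of the count of mt-Co2, and Gm28437 had 99.2% to 100.4% of the count of mt-Co3. The 5 copies on other chromosomes had at most 0.357%. Together the 12 copies held 1.09% to 4.86% of all counts, equal to 26.9% to 31.4% of the counts at the mitochondrial genes themselves. All 50-base runs of mt-Co2 and 98.0% to 99.9% of those of mt-Co3, mt-Atp6, mt-Nd4l and mt-Nd3 occur in a nuclear transcript of GENCODE M21. The share was 62.2% for mt-Nd4, 51.1% for mt-Co1, 8.19% for mt-Nd2, 7.61% for mt-Nd5 and 1.04% for mt-Rnr2, and 0 for mt-Cytb, mt-Nd1, mt-Nd6, mt-Atp8, mt-Rnr1 and all 22 transfer RNAs. Whether a fragment that matched both places was counted in full at each or divided between them is not stated in any source at hand, so levels of the first 7 of these messengers are uncertain relative to the other 6. With the copies added to the members, the mean share was 8.99% ± 1.31 (SD, n = 6) in Control, 10.03% ± 6.06 in Model and 8.33% ± 0.747 in AKK.

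Mitochondrial messengers took 5.78% to 8.40% of all counts in the Control libraries, 3.84% to 16.5% in the Model libraries and 5.53% to 6.87% in the AKK libraries. The mean share was 6.82% ± 1.05 (SD, n = 6) in Control, 7.54% ± 4.59 in Model and 6.26% ± 0.543 in AKK. The groups overlapped, and the Model group was spread the most. Single Control libraries had 7.59% (Control_2285), 5.89% (Control_2286), 7.12% (Control_2287), 6.17% (Control_2288), 5.78% (Control_2289) and 8.40% (Control_2668). Single Model libraries had 5.39% (Model_1316), 3.84% (Model_1337), 7.44% (Model_1338), 6.91% (Model_1339), 5.13% (Model_1340) and 16.5% (Model_1341). Single AKK libraries had 6.39% (AKK_1302), 6.87% (AKK_1303), 6.86% (AKK_1305), 5.85% (AKK_1306), 5.53% (AKK_1309) and 6.08% (AKK_1310). The 95% Wilson interval of a library's share was at most 0.0164 percentage points wide, which covers counting error only and is too narrow if several counts stand for 1 fragment.

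Ribosomal and transfer RNAs were a small part of the mitochondrial counts in these libraries, which were made from RNA captured by its adenine tail. Messengers made up 96.6% to 98.3% of the mitochondrial counts of a library, ribosomal RNAs 1.51% to 3.18% and transfer RNAs 0.219% to 0.282%. As a share of all counts, ribosomal RNAs took 0.143% ± 0.0436 (SD, n = 6) in Control, 0.201% ± 0.120 in Model and 0.152% ± 0.0196 in AKK. Transfer RNAs took 0.0173% ± 0.00299 in Control, 0.0193% ± 0.00997 in Model and 0.0159% ± 0.00232 in AKK. None of 12 two-sided exact permutation tests of these shares (all members and each class, in 3 comparisons) had an unadjusted p under 0.05. The lowest unadjusted p was 0.266, and the adjusted p (Benjamini-Hochberg) was 0.907 in all 12.

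**Figure D1:**
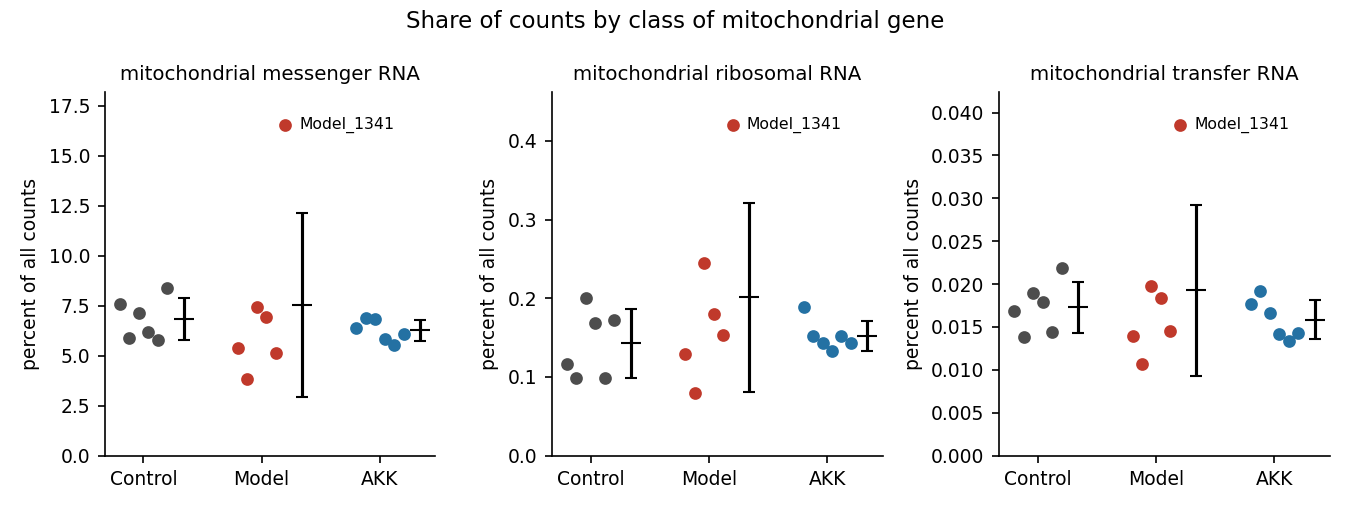
Percent of all counts held by mitochondrial messenger, ribosomal and transfer RNA genes in each library. Points are libraries, and the bar beside each group is the mean ± SD of 6. Model_1341 lies highest in all 3 panels, at 16.5% for messengers against at most 8.40% in the other 17 libraries.

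The library labelled Model_1341 stood apart from the others. All members together took 17.0% of its counts, 3.07 times the median of the other 5 Model libraries, and the largest share among the other 17 libraries was 8.59%. The messenger share was 3.07 times that median, the ribosomal share 2.75 times and the transfer RNA share 2.66 times, so all 3 classes were high in it. Without Model_1341 the Model mean of all members was 5.91% ± 1.51 (SD, n = 5). The difference from Control then changed from 0.777 to -1.07 percentage points, and the difference of AKK from Model changed from -1.33 to 0.516 percentage points, with the lowest adjusted p of the 12 exact permutation tests at 0.698. The lowest share was in Model_1337, at 3.93% of counts.

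Both libraries also held extreme sums for some markers of other cell types. In Model_1341 the summed level of 9 smooth muscle markers was the highest of the 18 libraries at 3950 FPKM. Its sum of 7 B and plasma cell markers, 148 FPKM, was the lowest of its group but within the Control range of 134 to 258 FPKM. Next highest in smooth muscle markers was Model_1337, the library with the lowest mitochondrial share, at 3832 FPKM. In Model_1337 the 7 squamous epithelium markers summed to 4746 FPKM. That sum was 0.394 to 1.01 FPKM in Control, 0.566 to 1.39 FPKM in AKK and 0.724 to 1.66 FPKM in the other Model libraries. The 12 colon epithelium markers had their lowest sum in Model_1337, at 1230 FPKM. Its 6 skeletal muscle markers summed to 309 FPKM, where no other library exceeded 17.2 FPKM, and its 4 red blood cell markers had the highest sum at 708 FPKM. The range of the epithelial sum was 5840 to 15620 FPKM in Control and 4779 to 10288 FPKM in AKK. The relations of the epithelial and smooth muscle sums with the messenger share are given further on, and the part of the other cell types was not tested. In bulk tissue fewer cells of a type and less RNA per cell cannot be told apart.

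Among the messengers, mt-Co1, which encodes the catalytic subunit of complex IV, was the most abundant per length in all 18 libraries. Its level in FPKM (fragments per transcript length, scaled to library depth) had a median of 16412 over all libraries. The Control libraries ranged from 14015 to 24470 FPKM with a median of 18502, the Model libraries from 8318 to 42603 with a median of 15568, and the AKK libraries from 14430 to 17526 with a median of 15679. The groups overlapped, and Model_1341 and Model_1337 held the highest and the lowest value.

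Below mt-Co1, the median over all libraries was 6667 FPKM for mt-Atp6, an ATP synthase subunit, and 6228 FPKM for mt-Co2, a complex IV subunit. It was 5226 FPKM for mt-Co3 of complex IV, 4930 FPKM for mt-Cytb, the cytochrome b of complex III, and 4776 FPKM for mt-Atp8 of the ATP synthase. The complex I subunits followed, with 4210 FPKM for mt-Nd1, 2478 for mt-Nd4, 1665 for mt-Nd6, 1657 for mt-Nd2, 1409 for mt-Nd5, 1071 for mt-Nd4l and 451 for mt-Nd3. Complex I messengers thus held the 7 lowest places. The order was much the same in all libraries, with a Spearman rho over the 13 messengers of 0.885 to 1 (median 0.978) between pairs of libraries, which is across genes and not across replicates. The places that never changed were those of mt-Co1 at the top, mt-Nd4 at place 8, mt-Nd4l at place 12 and mt-Nd3 at place 13.

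Some neighbours in this order did not differ beyond their spread. The level of mt-Co3 exceeded that of mt-Cytb in 11 of 18 libraries, mt-Cytb exceeded mt-Atp8 in 11 and mt-Nd6 exceeded mt-Nd2 in 12. The level of mt-Nd2 was above that of mt-Nd5 in 16 libraries, and mt-Atp6 was above mt-Co2 in 17. Counts shared with nuclear copies bear on 7 of these genes, as given above. Messengers read from the same bicistronic RNA did not have equal FPKM. The genes of each such pair overlap and differ in the runs they share with nuclear copies. The ratios that follow therefore cannot show whether their RNA levels differed. The level of mt-Atp6 was 1.13 to 1.69 times that of mt-Atp8, and that of mt-Nd4 was 1.78 to 3.35 times that of mt-Nd4l, with both extremes in Control libraries (Control_2668 and Control_2288).

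**Figure D2:**
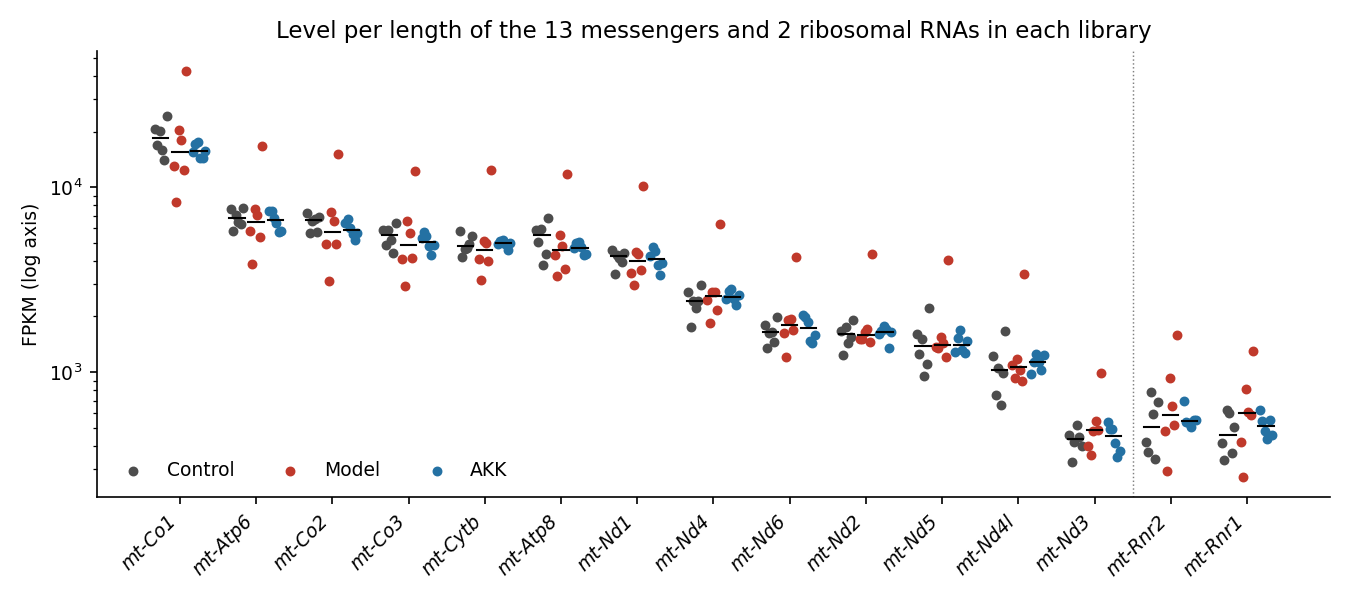
Level in FPKM (log axis) of the 13 messengers in order of their median, and of the 2 ribosomal RNAs to the right of the dotted line. Each point is a library and each short line the median of 6. The red points above the rest are Model_1341, with 42603 FPKM for mt-Co1.

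The 2 ribosomal RNAs, mt-Rnr1 of the small and mt-Rnr2 of the large subunit of the mitochondrial ribosome, had median levels of 525 and 541 FPKM. The level of mt-Rnr2 ranged from 337 to 782 FPKM in Control, from 292 to 1585 FPKM in Model and from 503 to 697 FPKM in AKK. That of mt-Rnr1 ranged from 333 to 624 FPKM in Control, from 271 to 1308 FPKM in Model and from 435 to 624 FPKM in AKK. The groups overlapped for both genes. The ratio of mt-Rnr2 to mt-Rnr1 stayed between 0.887 and 1.38 in all 18 libraries, although mt-Rnr1 lies nearer to the start of transcription.

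As a share of the messenger counts, the 3 complex IV genes held 58.1% ± 3.11 (SD over 18 libraries), the 7 complex I genes 22.8% ± 2.43, mt-Cytb 9.61% ± 0.768 and the 2 ATP synthase genes 9.49% ± 0.462. Complex I genes held 20.9% ± 1.26 (SD, n = 6) in Control, 24.3% ± 3.29 in Model and 23.1% ± 0.505 in AKK, and complex IV genes 60.6% ± 2.44, 56.6% ± 3.95 and 57.2% ± 0.673. The share of each messenger was tested in each comparison, which made 39 two-sided exact permutation tests. After Benjamini-Hochberg adjustment over the 39, 0 passed, and 7 had an unadjusted p under 0.05. Among these, mt-Nd6, the sole messenger encoded on the minus strand, held 1.39% ± 0.0943 (SD, n = 6) in Control, 1.67% ± 0.180 in Model and 1.58% ± 0.156 in AKK. Its difference had an adjusted p of 0.236 in the exact permutation tests of both Model and AKK against Control. The gene shares 14 bases with mt-Nd5 on the other strand. No source at hand states whether counting used the strand, so the share of mt-Nd6 may hold RNA of the plus strand. The share of mt-Nd4 was 4.50% to 6.43% in Control (mean 5.41%), 5.53% to 7.32% in Model (mean 6.39%) and 5.97% to 6.46% in AKK (mean 6.25%), and that of mt-Co1 was 46.4% ± 2.83 (SD, n = 6), 42.7% ± 3.31 and 43.1% ± 1.06. Without Control_2289, mt-Co1 and mt-Nd4 passed the adjustment in AKK against Control. The ranges overlapped between groups for mt-Nd6, mt-Nd4 and mt-Co1.

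Group differences of single members were tested with edgeR's quasi-likelihood test on the deposited counts, fitted over the 14007 genes that reached 1 FPKM in 6 or more libraries. This filter passed 36 of the 37 members, and mt-Tv, a transfer RNA with 0 to 8 counts per library, was not tested. In Model against Control, 20.0% of all genes tested were called at an adjusted p under 0.05 (12.4% higher and 7.60% lower), and 3 of 36 members were, all lower (8.33%). Between AKK and Control, 6.13% of all genes were called (3.69% higher and 2.44% lower), and the same 3 members were, again lower. Those comparisons share the Control libraries. In AKK against Model, 0.0214% of all genes were called, and 0 of 36 members were. In that comparison 0 members had an unadjusted p under 0.05 with edgeR, 0 were called by DESeq2 and 0 by limma, and limma gave 1 unadjusted p under 0.05.

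Of the 13 messengers and 2 ribosomal RNAs 0 were called in any comparison by edgeR, DESeq2 or limma, and 0 had an unadjusted p under 0.05 in those fits. The median log2 change of the 13 messengers was 0.25 in Model against Control, with single values from 0.07 to 0.46, beside a median of 0.00 over all genes tested. It was -0.23 without Model_1341. In AKK against Model the median was -0.37 (all genes, -0.02) and 0.11 without Model_1341, and in AKK against Control it was -0.11 (all genes, -0.01). The direction of the messengers in both comparisons with the Model group therefore rested on Model_1341. For mt-Co1 the log2 change was 0.07 ± 0.34 (SE) in Model against Control, -0.41 ± 0.34 in AKK against Model and -0.34 ± 0.34 in AKK against Control, with adjusted p of 0.902, 0.796 and 0.562. The smallest p in AKK against Model belonged to 3 transfer RNAs, mt-Tn for asparagine with a log2 change of -0.59 ± 0.29 (adjusted p = 0.732), mt-Tf for phenylalanine with -0.50 ± 0.25 (adjusted p = 0.749) and mt-Ti for isoleucine with -0.72 ± 0.40 (adjusted p = 0.750).

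**Figure D3:**
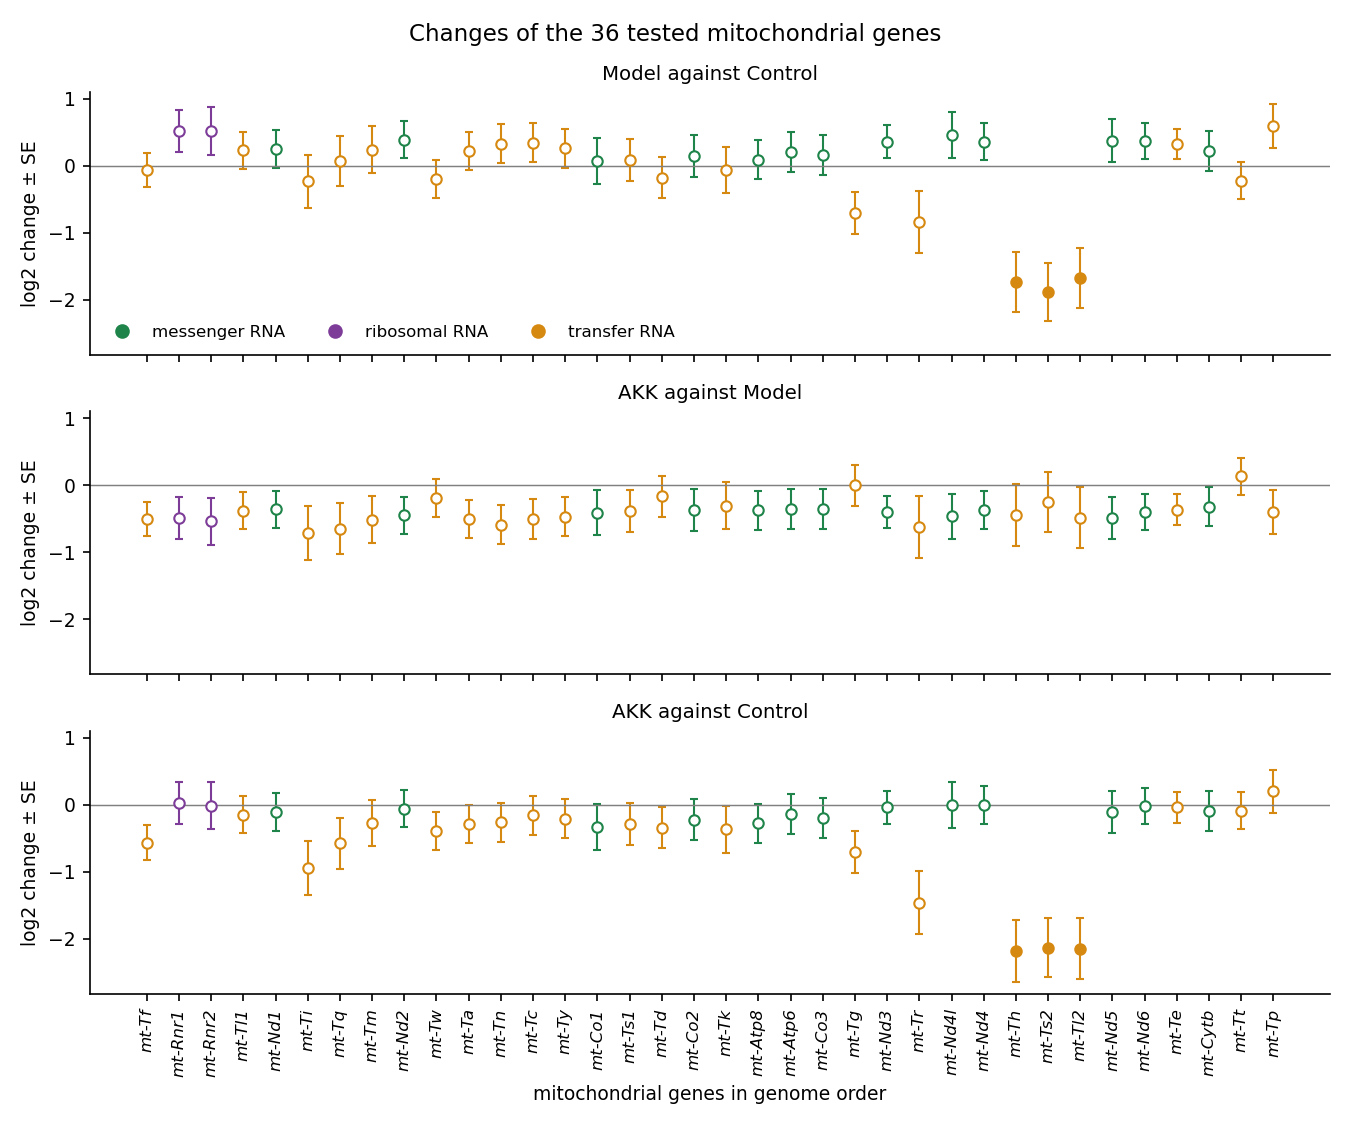
Log2 change ± SE from edgeR of the 36 tested members in genome order, in the 3 comparisons. Filled points have an adjusted p under 0.05. Only mt-Th, mt-Ts2 and mt-Tl2 are filled, at -1.67 to -1.88 in Model against Control and -2.13 to -2.18 in AKK against Control.

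The called members were the 3 neighbours mt-Th, mt-Ts2 and mt-Tl2. For mt-Ts2, which reads serine codons, the deposited counts were 29, 43, 32, 20, 18 and 97 in Control, 11, 10, 5, 12, 9 and 29 in Model and 18, 9, 11, 9, 9 and 15 in AKK. The Control libraries were higher, with an overlap at the lower end, where 1 Model library (Model_1341, with 29) and 1 AKK library (AKK_1302, with 18) reached the Control range. For mt-Th, which reads histidine codons, the counts were 26 to 137 in Control (median 46), 7 to 48 in Model (median 16) and 11 to 24 in AKK (median 15). For mt-Tl2, which reads leucine codons, they were 22 to 117 (median 36.5), 6 to 39 (median 14.5) and 6 to 19 (median 14.5). By count all AKK libraries were below all Control libraries for mt-Th and mt-Tl2, and Model_1341 was the Model library within the Control range for both. These counts are not scaled for library size. In FPKM mt-Ts2 separated too, with at most 4.18 in AKK and at least 4.82 in Control. The genes were singled out because they were called, and how many of all genes separate in this way was not determined.

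Scaled for library size, the 3 genes fell in both comparisons in the fit over 18 libraries. In Model against Control the log2 change was -1.88 ± 0.44 (SE) for mt-Ts2 (adjusted p = 0.00913), -1.74 ± 0.45 for mt-Th (adjusted p = 0.0151) and -1.67 ± 0.45 for mt-Tl2 (adjusted p = 0.0167). In AKK against Control it was -2.13 ± 0.44 for mt-Ts2 (adjusted p = 0.0131), -2.18 ± 0.46 for mt-Th (adjusted p = 0.0147) and -2.15 ± 0.46 for mt-Tl2 (adjusted p = 0.0148). With the Model and Control groups fitted alone mt-Th (adjusted p = 0.0569) and mt-Tl2 (adjusted p = 0.0592) did not pass in edgeR's test, and mt-Ts2 did. That fit called 239 of all 14007 genes lower, against 1064 over 18 libraries. With scaling to the mitochondrial messengers 0 of the 3 passed in AKK against Control (adjusted p from 0.0654 to 0.0680), where 1 of all 14007 genes was called. In AKK against Model the log2 changes of mt-Ts2, mt-Th and mt-Tl2 were -0.25, -0.45 and -0.48, and none passed. Since the labels' protocol gives a mean insert longer than the 196 bases that hold these genes, fragments can count for all of them, and they are best read as a single measurement. A share of 8.33% of members called lower in Model against Control is close to the 7.60% of all genes.

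The counts behind this are low. Summed over the 3 genes, they were 68 to 351 in Control, 18 to 116 in Model and 28 to 60 in AKK. Values of 4 counts were unusually frequent over all genes, but counts of mt-Ts2 such as 5, 9 and 11 were not multiples of 4. How many counts stand for 1 fragment at these short genes is not known. Relative to mt-Nd4, the messenger just upstream, the sum was 0.340 to 1.41 per 1000 mt-Nd4 counts in Control, 0.0701 to 0.254 in Model and 0.104 to 0.251 in AKK. No Model or AKK library reached the Control range by this measure, which was chosen after the values were seen and not tested. Control_2668 was the highest, and without it the log2 changes were -1.15 to -1.38 in Model against Control and -1.63 to -1.69 in AKK against Control, all still called. For AKK against Control, 0 of the 3 were called without the 4 libraries above 70000000 counts, 3 of which are AKK libraries (adjusted p = 0.168 for mt-Ts2, 0.169 for mt-Th and 0.178 for mt-Tl2). That fit called few of all 14007 genes, 54 higher and 2 lower, against 517 and 342 over 18 libraries. Of 7 B and plasma cell markers, 7 were called higher in Model and 6 in AKK against Control, beside 12.4% and 3.69% of all genes. The summed level of these markers was 134 to 258 FPKM in Control, 148 to 2239 FPKM in Model and 549 to 1242 FPKM in AKK. None of the markers was at a median of 0 in any group, and their part in this result was not tested.

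**Figure D4:**
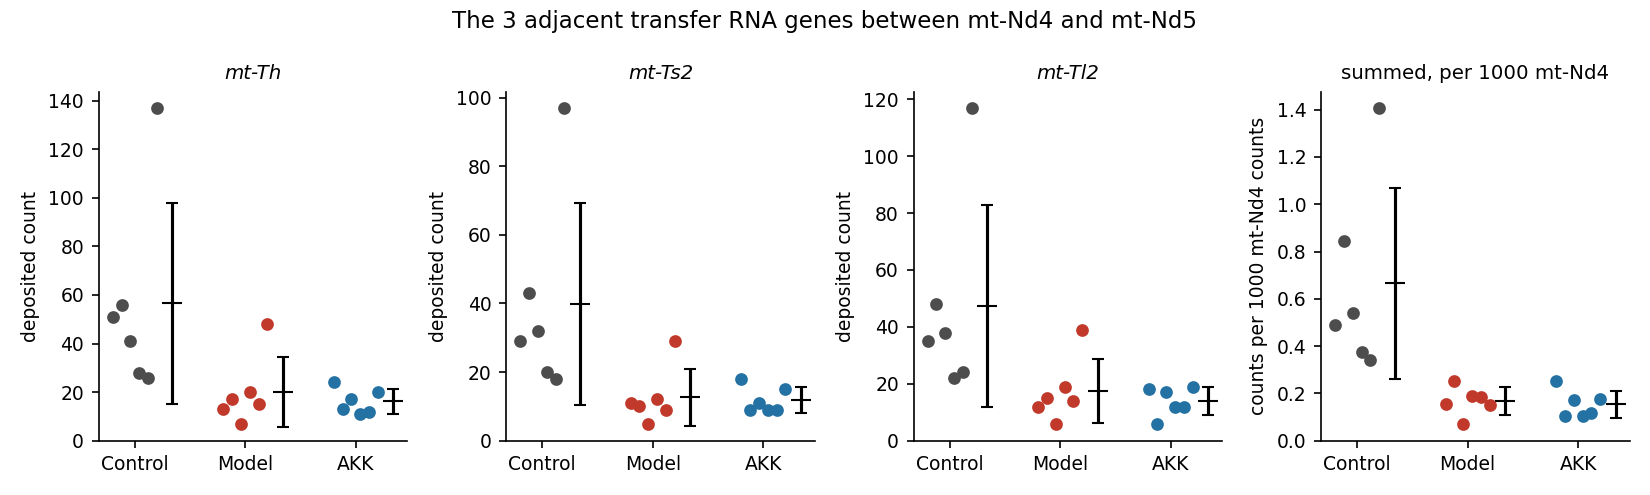
Deposited counts of mt-Th, mt-Ts2 and mt-Tl2 in each library, and their sum per 1000 counts of mt-Nd4. Points are libraries and bars the mean ± SD of 6. The Control points lie at 0.340 to 1.41 in the right panel, above all others, and Control_2668 is the highest point of each panel.

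Other transfer RNAs did not pass. Those given here, mt-Tr for arginine, mt-Tg for glycine and mt-Ti, were picked after their values were seen. The log2 change of mt-Tr was -0.84 ± 0.46 (SE) in Model against Control (adjusted p = 0.199) and -1.47 ± 0.47 in AKK against Control (adjusted p = 0.0685), where DESeq2 called it. For mt-Tg it was -0.71 ± 0.31 in both comparisons (adjusted p = 0.113 and 0.164), and for mt-Ti it was -0.95 ± 0.40 in AKK against Control (adjusted p = 0.152). Without Model_1341, 6 of 36 members were called lower in Model against Control, among them mt-Tg, mt-Tr and mt-Tk for lysine. In that fit 1399 of all 14007 genes were called lower. Over the 21 tested transfer RNAs the median log2 change was -0.06 in Model against Control, -0.45 in AKK against Model and -0.35 in AKK against Control. The first was -0.41 and the second 0.00 without Model_1341.

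The 4 transfer RNA genes with the highest median level were mt-Ts1 at 1062 FPKM, mt-Te for glutamate at 334 FPKM, mt-Tl1 for leucine at 243 FPKM and mt-Tp for proline at 176 FPKM. All other transfer RNAs had medians between 0.593 and 51.8 FPKM. In Control, mt-Ts1 ranged from 872 to 1333 FPKM, in Model from 440 to 2456 FPKM and in AKK from 842 to 1205 FPKM. It had 2.31 to 3.73 counts for every 1000 counts of mt-Co1, whose end it overlaps on the other strand. The libraries keep the strand, but no source at hand states whether counting used it, so counts of mt-Ts1 and of the end of mt-Co1 cannot be told apart.

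Across libraries, the messenger share was set against 6 other measures, with permutation p-values adjusted over the 6. It rose with the transfer RNA share (Pearson r = 0.978, permutation p = 1e-05, the smallest the resampling can give, adjusted p = 6e-05, and Spearman rho = 0.870, adjusted p = 0.00012, n = 18), which has the same total as its denominator. A large part of the transfer RNA counts was mt-Ts1, with 5197 of 9553 in Control_2285 and 15000 of 30504 in Model_1341. Since these cannot be told apart from the end of mt-Co1, both shares may hold the same fragments. The relation was not tested without mt-Ts1. Without Model_1341 and Model_1337, the libraries farthest from the median, r was 0.872 (adjusted p = 0.00018, permutation test). With the ribosomal RNA share r was 0.901 and rho 0.620 (adjusted permutation p = 0.00123 and 0.0116), but without those libraries r was 0.447 (adjusted permutation p = 0.123), so this relation rested on them. Within groups, r between messenger and transfer RNA shares was 0.841 in Control, 0.998 in Model and 0.881 in AKK, and with the ribosomal share it was 0.496, 0.976 and 0.172 (n = 6 each).

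Within the epithelial sum, Car1 alone ranged from 57.9 to 8845 FPKM over the libraries, and Epcam from 130 to 635 FPKM. Much of the spread of that sum is therefore Car1, and the relation was not tested without it. Epithelial markers gave a rank relation with the messenger share, with rho = 0.705 (adjusted permutation p = 0.00501) and r = 0.212 (adjusted permutation p = 0.413) over 18 libraries. Without the same 2 libraries r was 0.682 (adjusted permutation p = 0.0125). Within groups rho was 0.371 in Control, 0.771 in Model and 0.714 in AKK, and none passed the adjusted exact permutation test. The summed level of 25 nuclear respiratory subunits behaved alike, with rho = 0.622 (adjusted permutation p = 0.0116) and r = 0.210 (adjusted permutation p = 0.373), and r = 0.562 (adjusted permutation p = 0.0456) without those 2 libraries. Within groups rho was 0.371, 0.771 and 0.771, and again none passed. With total counts (r = 0.269, rho = -0.0712) and with smooth muscle markers (r = 0.365, rho = -0.0815) no relation passed the permutation test over 18 libraries, with adjusted p from 0.281 to 0.780. Within groups the relation with total counts took both signs, with r = 0.986 in Model (adjusted exact permutation p = 0.0167), r = -0.904 in AKK (adjusted exact permutation p = 0.0722) and r = -0.267 in Control. Within groups r with the smooth muscle markers was 0.498 in Control, 0.391 in Model and -0.0240 in AKK, and none passed.

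Nuclear genes that act on mitochondrial RNA were tested in the same fit. Of 20 genes for cleavage, polyadenylation, stability and decay of mitochondrial RNA, 8 fell (40%, beside 7.60% of all genes) and 1 rose in Model against Control, with a median log2 change of -0.31 (all genes, 0.00). Lrpprc, which with Slirp binds and stabilises mitochondrial messengers, fell with a log2 change of -0.64 ± 0.09 (SE, adjusted p = 0.000941). Fastkd2, which binds the large ribosomal RNA, fell with -0.69 ± 0.12 (adjusted p = 0.00254). Supv3l1 and Pnpt1, the helicase and the nuclease that degrade mitochondrial RNA, fell with -0.51 and -0.49, and Rexo2, which clears the short remnants, rose with 0.55. Tbrg4, Fastkd5, Ptcd2 and Ptcd3 were the others that fell. Without single libraries 6 to 10 fell, with 6 without Control_2286 or Control_2287 and 10 without Control_2668. Over all 14007 genes, 637, 919 and 1455 were called lower without those libraries in turn.

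Among these 20 genes 2 fell in AKK against Control (10%, beside 2.44% of all genes), Lrpprc with a log2 change of -0.42 ± 0.09 (SE, adjusted p = 0.0186) and Pnpt1 with -0.38 ± 0.09 (adjusted p = 0.0203). Limma called 0 of the 20 there and DESeq2 6, and leaving out single libraries gave 1 (without Control_2286) to 7 (without Control_2668). Over all genes, those called lower numbered 84 with limma, 916 with DESeq2, 84 without Control_2286 and 834 without Control_2668. In AKK against Model 0 of the 20 passed, and 4 had an unadjusted p under 0.05 with edgeR, with the smallest p for Fastkd2 (0.36 ± 0.12, adjusted p = 0.718) and Supv3l1 (0.24 ± 0.08, adjusted p = 0.726). With library sizes taken from the 13 mitochondrial messengers, which shifted the median of all genes to 0.20 in Model against Control, 0 of the 20 were called in any comparison. Over all 14007 genes that scaling called 188 higher and 16 lower in Model against Control.

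**Figure D5:**
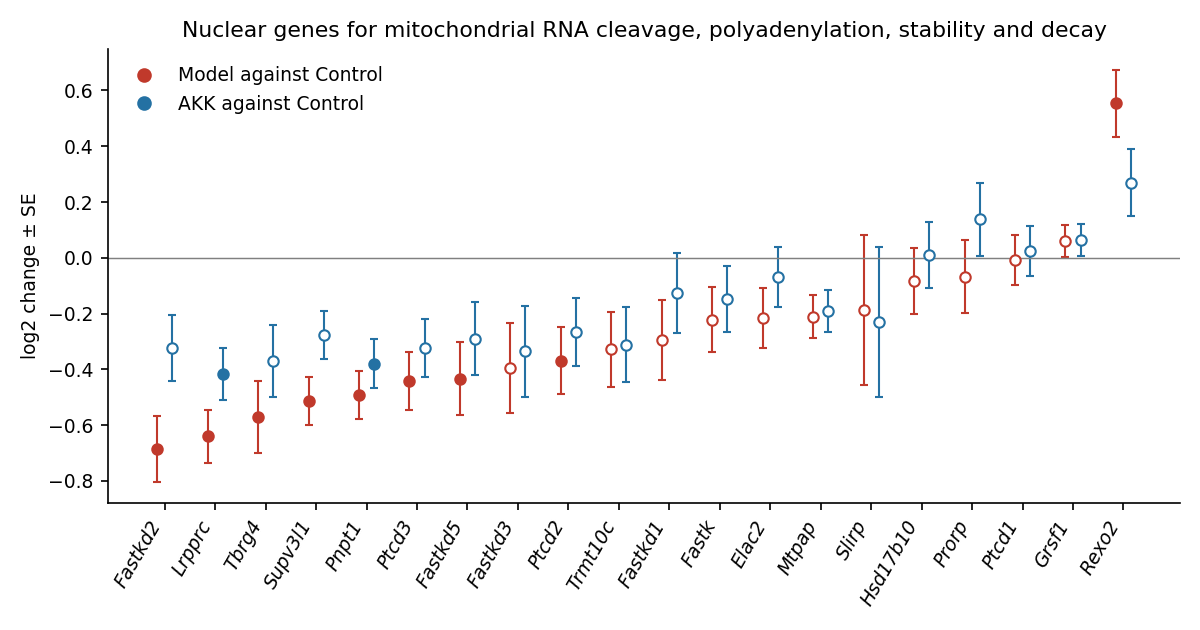
Log2 change ± SE from edgeR of the 20 nuclear genes for cleavage, polyadenylation, stability and decay of mitochondrial RNA. Red shows Model against Control and blue AKK against Control, and filled points have an adjusted p under 0.05. In red 8 genes are filled below 0 and Rexo2 above it, and in blue Lrpprc and Pnpt1 are filled.

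Of 11 genes for mitochondrial transcription, 2 fell in Model against Control (18.2%, beside 7.60% of all genes), Tfam, which packages the genome and opens its promoters, with a log2 change of -0.36 ± 0.11 (SE, adjusted p = 0.0314), and Tefm, an elongation factor, with -0.39 ± 0.13 (adjusted p = 0.0377). Without Control_2286, with limma, with the 2 groups fitted alone and with scaling to the mitochondrial messengers, 0 were called. Over all 14007 genes those fits called 637, 687, 239 and 16 lower in turn. Polrmt, the mitochondrial RNA polymerase, had a log2 change of -0.14 ± 0.09 (adjusted p = 0.303). In AKK against Control Tfam (-0.22 ± 0.11), Tefm (-0.33 ± 0.13) and Polrmt (-0.09 ± 0.09) did not pass, and in AKK against Model 0 of the 11 did, with the smallest p for Mterf1a (-0.32 ± 0.18) and Tfam (0.15 ± 0.11). With edgeR, 0, 1 and 4 of the 11 had an unadjusted p under 0.05 in AKK against Model, AKK against Control and Model against Control.

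Of 25 nuclear subunits that assemble with the mitochondrial ones, 11 fell in Model against Control (44%, beside 7.60% of all genes, with a median log2 change of -0.36), led by Ndufs1 of complex I with -0.73 ± 0.13 (SE, adjusted p = 0.00254) and Uqcrfs1, the iron-sulfur protein of complex III, with -0.59 ± 0.19 (adjusted p = 0.0334). That count changed with the libraries in the fit and with the scaling, as did the calls over all genes. The subunits that fell numbered 0 with scaling to the mitochondrial messengers and 1 with the 2 groups fitted alone. They numbered 5 without Control_2286, 6 without Model_1316 or without Model_1340 and 18 without Model_1341. Genes called lower among all 14007 numbered 16 and 239 in the first 2 of these fits. In the others they numbered 637, 719, 765 and 1399 in the order given, against 1064 over 18 libraries. Ndufs1 also fell in AKK against Control (-0.48 ± 0.13, adjusted p = 0.0344), where it was the 1 called of 25 (4%, near the 2.44% of all genes), against 0 or 1 without single libraries, 4 with DESeq2, 0 with limma and 15 with the 2 groups fitted alone. Over all genes there, DESeq2 called 916 lower and limma 84. The 2 groups fitted alone also called more of all genes lower than the 342 over 18 libraries. In AKK against Model 0 passed and 0 had an unadjusted p under 0.05 with edgeR, and the smallest p belonged to Ndufs1 (0.26 ± 0.13) and Atp5a1 of the ATP synthase (0.20 ± 0.14). The summed epithelial markers given above were lower in the medians of Model (5685 FPKM) and AKK (6059 FPKM) than of Control (11027 FPKM), and 0 of the 12 passed in any comparison. Car1, at up to 8845 FPKM, was a large part of that sum. Its log2 change was -1.06 ± 0.90 (SE) in Model and -1.36 ± 0.90 in AKK against Control. For Epcam it was -0.36 ± 0.25 and -0.31 ± 0.25. Markers of other cell types did pass in Model against Control, where 12.4% of all genes were called higher. There 7 of 7 B and plasma cell markers and 4 of 9 smooth muscle markers (Tagln, Cnn1, Lmod1 and Des) were higher. The summed smooth muscle level was 721 to 2589 FPKM in Control, 1421 to 3950 FPKM in Model and 1490 to 2259 FPKM in AKK. The part of these cell types in the nuclear changes was not tested.

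The other nuclear lists had no called member in any comparison with edgeR over all 18 libraries. Of 13 genes for transfer RNA maturation, 1, 0 and 1 had an unadjusted p under 0.05 in Model against Control, AKK against Model and AKK against Control, of 11 genes for mitochondrial DNA replication 2, 0 and 0, and of 6 regulators of mitochondrial biogenesis 3, 0 and 0. DESeq2 called 1 gene of each of these 3 lists in Model against Control and 0 in the other comparisons, and limma called 1 replication gene there. In the same comparison, leaving out single libraries gave up to 3 replication genes called higher and up to 2 transfer RNA maturation genes called lower (both without Control_2668), and 2 regulators called lower (without Model_1337 or Model_1341). Over all genes in that comparison, DESeq2 called 2026 higher and 1541 lower, and limma 1156 and 687. Without Control_2668, 1820 were called higher and 1455 lower. Without Model_1337, 1063 were called lower, and without Model_1341, 1399. Esrra was called lower in AKK against Control with the 2 groups fitted alone (adjusted p = 0.0160 in edgeR's test). That fit called more of all genes lower than the 342 over 18 libraries. In Model against Control the smallest p belonged to Trmt61b (-0.37 ± 0.13, SE) and Mto1 (-0.20 ± 0.10) for transfer RNA modification, to Tk2 (0.33 ± 0.12), a nucleoside kinase, and Ssbp1 (-0.21 ± 0.09), which coats single-stranded DNA, and to the coactivator Ppargc1b (-0.47 ± 0.17) and the receptor Esrra (-0.43 ± 0.17). Ppargc1a, the best known coactivator of mitochondrial biogenesis, had -0.28 ± 0.41 (adjusted p = 0.655). In AKK against Control the smallest p belonged to Cdk5rap1 (-0.32) and Trmt5 (-0.19), to Mgme1 (-0.20) and Dguok (0.18), and to Esrra (-0.35) and Ppargc1b (-0.33). In AKK against Model it belonged to Trmt61b (0.27) and Mto1 (0.15), to Tk2 (-0.22) and Ssbp1 (0.13), and to Pprc1 (0.35) and Nrf1 (0.11).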

How the data were processed

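Per the labels' protocols, colon RNA was captured by its poly(A) tail, made into dUTP strand-marked libraries and sequenced as read pairs. The submitters' processing notes name cutadapt 1.9, HISAT2 2.2.1, StringTie 2.1.6, DESeq2, edgeR and the mm10 build, with no role or order. No annotation release, strand option or treatment of multi-mapped fragments is stated in the sources at hand. Per the file headers, the authors deposited an FPKM and an estimated count for each gene and library. The estimated counts were deposited as whole numbers, so none was rounded. Values of 4 counts were 2.36 times as frequent as their neighbours, and dividing by 4 was an alternative. The table held 0 columns of other samples. All 37 members have the same coordinates in GENCODE M21.

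Libraries were grouped by title. The members, gene lists and tests were chosen with earlier results of these data known. Named are all messengers and ribosomal RNAs, called members (or the 3 smallest p), the 4 highest and the called transfer RNAs, 2 genes per nuclear list, and Tfam, Polrmt, Lrpprc and Ppargc1a. Of 131 listed nuclear and marker genes, 131 matched the table. edgeR 4.0.16 (robust quasi-likelihood, TMM, 1 model over 18 libraries, R 4.3.3) tested 14007 genes, with Benjamini-Hochberg adjusted p under 0.05 as a call. DESeq2 1.42.0 and limma 3.58.1 on log2(FPKM + 1) were alternatives, with the other scalings, filters and left-out libraries given at the end. Shares were compared by two-sided exact permutation tests, whose smallest p is 0.00216 for 6 against 6, and relations by 100000 permutations (numpy 2.4.6, pandas 2.3.3, scipy 1.17.1, figures with matplotlib 3.10.9, Python 3.11.15). Nuclear copies were found by matching 50-base runs on both strands among GENCODE M21 transcripts, a step added after the data were seen. The edgeR fit and the permutation test were tested on simulated data.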

Additional observations from a re-analysis of the deposited data

Results flagged for a closer look

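A gap test set the highest or lowest library of a group of 6 against the group's range, in 117 groups of values, and 26 passed Dixon's 95% critical ratio. Chance flags about 1 in 20 groups, and the genes are not independent of each other. Model_1341 accounted for 18 of them, always as the highest Model library. It held 16.99% of counts for all members, 16.53% for messengers and 0.0385% for transfer RNAs. Its levels were 10147 FPKM for mt-Nd1, 4371 FPKM for mt-Nd2, 42603 FPKM for mt-Co1, 15197 FPKM for mt-Co2, 11835 FPKM for mt-Atp8, 16637 FPKM for mt-Atp6, 992 FPKM for mt-Nd3, 3377 FPKM for mt-Nd4l, 6369 FPKM for mt-Nd4, 4061 FPKM for mt-Nd5, 4185 FPKM for mt-Nd6 and 12457 FPKM for mt-Cytb. For transfer RNAs they were 742 FPKM for mt-Te, 622 FPKM for mt-Tl1 and 464 FPKM for mt-Tp. The level of mt-Co3 in this library, 12325 FPKM, did not pass the gap test although it was the highest of all.

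AKK_1302 was above the other AKK libraries in the ribosomal RNA share, with 0.189% of counts against 0.133% to 0.152%, and in mt-Rnr2, with 697 FPKM against 503 to 552 FPKM. Control_2668 was above the other Control libraries in the 3 neighbouring transfer RNAs, with 33.6 FPKM for mt-Th, 26.8 FPKM for mt-Ts2 and 26.9 FPKM for mt-Tl2. Model_1337 differed in the make-up of its messengers, where mt-Nd2 held 4.55% and mt-Nd5 7.14% of the messenger counts, the highest of the Model group, and mt-Co2 held 6.18%, the lowest. The part that tissue make-up played in these values was not tested.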

How the results depend on the processing

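No paired analysis was possible because the groups share no library numbers. Some alternatives (leaving out the 4 libraries above 70000000 counts or Model_1341 with Model_1337, total-count scaling, scaling to the mitochondrial messengers, leaving mt-Ts1 out, and leaving nuclear copies out of the total or adding them to the members) were chosen after seeing the data. Members called in Model against Control numbered 1 with the 2 groups alone and 3 to 6 without single libraries. In AKK against Control they numbered 5 with the 2 groups alone, 0 with scaling to the mitochondrial messengers (adjusted p from 0.0654 for mt-Th to 0.0680 for mt-Ts2 and mt-Tl2), 0 without the 4 largest libraries and 3 without single libraries, and in AKK against Model they were 0 in all 26 alternatives. Scaling to the mitochondrial messengers left few calls among all genes too (204 of 14007 in Model against Control and 1 in AKK against Control). Without the 4 largest libraries, 54 of all genes were called higher and 2 lower in AKK against Control. With AKK and Control fitted alone, 1394 of all genes were called higher, against 517 over 18 libraries. More genes were called lower there too than the 342 over 18 libraries. With Model and Control fitted alone, 613 were called higher and 239 lower, against 1733 and 1064.

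Without the 4 largest libraries, differences of shares changed sign. For all members they were -1.07 percentage points in Model against Control and 0.970 in AKK against Model, for messengers -1.08 and 0.963, for ribosomal RNA 0.00415 in AKK against Model, and for transfer RNA -0.00185, 0.00238 and 0.000534 in Model against Control, AKK against Model and AKK against Control. On log2 shares the Model against Control difference was -0.00512 for all members and -0.0132 for messengers. Without single libraries (Model_1341 and Model_1337 set the ends), Model against Control ranged from -1.07 to 1.54 points for all members, -1.08 to 1.46 for messengers and -0.00185 to 0.00372 for transfer RNA, and AKK against Model from -2.10 to 0.516, -2.02 to 0.521 and -0.00515 to 0.000418. No share passed under these settings. The rank relation of messenger and ribosomal shares fell to rho = 0.459 without the 2 farthest libraries. Log2 changes of genes that did not pass also changed sign, for Polrmt in Model against Control to 0.0464 and in AKK against Control to 0.125 (scaling to the messengers), 0.00989 and 0.00868 (limma with 0.1 and 1 added) or 0.0103 (total-count scaling), for Polrmt in AKK against Model to -0.0133 (without the 4 largest), for Trmt5 in AKK against Control to 0.00701 (scaling to the messengers), and for Ppargc1a to 0.0276 in AKK against Model (limma with 0.1 added) and from -0.47 to 0.12 in Model against Control without single libraries. The causes were not tested.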
